A study of Mus musculus with 10 samples.

Results

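KRAB zinc finger proteins are DNA-binding repressors that pair a KRAB domain with an array of C2H2 zinc fingers. The KRAB domain recruits TRIM28 (KAP1), which brings SETDB1 and other chromatin factors to the bound site, and in mouse embryonic stem cells (ESC) this pathway is known for silencing endogenous retroviruses. Many of the genes arose by recent tandem duplication and lie in clusters of close copies. The genes described here lie in 3 such clusters of the mouse genome (mm10), on chromosome 2 (175 to 178.5 Mb), chromosome 4 (145 to 148 Mb) and chromosome 13 (61 to 68 Mb). Members were all features that start in these windows and whose symbol begins with Zfp or Gm or ends in Rik. They comprised 124 of 43031 features, at 99 of 28706 sites and in 84 genes. The rule uses position and symbol, but the windows were selected on expression measured in these libraries. A feature joins a UCSC 3′UTR to the 2 kb that follow it, and a site is a set of features with the same coordinates. The chromosome 2 cluster held 37 sites in 29 genes, the chromosome 4 cluster 18 sites in 16 genes and the chromosome 13 cluster 44 sites in 39 genes.

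RNA was sequenced from C57BL/6 ESC grown with LIF on fibroblast feeders or gelatin, in 3 groups that each gave 3 libraries. WT cells carry no engineered allele by their labels. DIDO3ΔE16 cells lack the DIDO3-specific exon 16, which was floxed and deleted by crossing to Tg(SOX2-Cre)1Amc mice, and the study describes the ESC as homozygous. DIDO3ΔCT+HADIDO3 cells carry the earlier C-terminal deletion of DIDO3 and express HA-tagged DIDO3 as a reconstitution, and this allele affects the same exon. The labels name 4 WT samples, of which replicates 2 and 3 share 1 library and were counted as WT replicate 2-3. Nothing states that the libraries of a group came from separate lines or cultures, so p-values measure the spread between these libraries, which may be technical. The library identifiers of WT replicates 1 and 4 begin with C7A9 and those of all other libraries with C79M. These were read as flow cell families, which no label states. Features held 1.46 to 2.62 Gb of aligned bases per library, and 1 TPM equalled 0.434 to 0.775 reads over each base. Dido1, the targeted gene, had 50.3 ± 1.64 TPM (SD, n = 3) in WT at the site from 180678954 to 180683548 on chromosome 2, against 6.62 ± 0.444 in DIDO3ΔE16 and 44.8 ± 1.59 in DIDO3ΔCT+HADIDO3. Its other sites differed, with 16.1, 0.455 and 11.5 TPM in these groups at the one starting at 180655963, 4.82, 89.5 and 8.13 TPM at 180663936 and 40.2, 155.9 and 147.5 TPM at 180686711. Each marker gene was taken at its most abundant site over all libraries, and values of any other site of the gene are not included. The 10 stem cell markers summed to 4453 to 5698 TPM in WT, 6076 to 6575 TPM in DIDO3ΔE16 and 4852 to 6763 TPM in DIDO3ΔCT+HADIDO3. The sums moved with Esrrb, which had 5.18 and 8.78 TPM in WT replicates 1 and 4, 9.70 TPM in DIDO3ΔCT+HADIDO3 replicate 2 and at least 1155 TPM elsewhere. In WT replicate 4, the Nanog site had 3.10 TPM (664 and 676 in the other WT libraries) and the Pou5f1 site 484 TPM (168 and 180). Whether such differences within a group hold for the whole gene was not tested. Relative to WT, 0 of the 10 were called in DIDO3ΔE16 (15.1% of all sites), with a median log2 fold change of 0.03. Nanog and Esrrb, with a wide spread in WT, had uncalled changes of 3.20 ± 2.33 and 4.99 ± 2.25 (SE). In DIDO3ΔCT+HADIDO3 (17.3% of all sites), Zfp42 was called higher (log2 fold change 1.65) and Klf4 and Fbxo15 lower (-0.75 and -0.98). The 12 fibroblast markers, which could mark feeder cells, summed to 614 to 675 TPM in WT, 163 to 673 TPM in DIDO3ΔE16 and 564 to 586 TPM in DIDO3ΔCT+HADIDO3. Fn1 held most of that sum, and the low value was DIDO3ΔE16 replicate 2, where the Fn1 site had 27.5 TPM. Without Fn1 the sums were 68.96 to 74.3 TPM in WT, 135.5 to 142.5 TPM in DIDO3ΔE16 and 66.8 to 73.2 TPM in DIDO3ΔCT+HADIDO3. Most of the last sum was Thy1, with means of 19.1 TPM in WT and 54.4 TPM in DIDO3ΔCT+HADIDO3. In DIDO3ΔE16, 7 of 10 tested markers were called higher than in WT and 0 lower (10.2% and 4.93% of all sites). In DIDO3ΔCT+HADIDO3, 1 of 7 was called higher (Thy1) and 3 lower (10.0% and 7.22% of all sites). Among those lower, Col1a1 and Col1a2 had means of 11.7 and 18.25 TPM in WT and 1.14 and 0.239 TPM in DIDO3ΔCT+HADIDO3. Col3a1, Postn and Prrx1 had libraries at 0 TPM there and were not tested. Their means were 0.815, 1.88 and 3.27 TPM in WT and 0, 0.0206 and 0.0434 TPM in DIDO3ΔCT+HADIDO3. The defining fibroblast markers Dcn and Lum were at most 0.129 TPM in any library, and both were listed at 0 TPM in all WT libraries. The part of feeder cells in the results below was not tested, and in bulk RNA fewer cells of a type and less RNA per cell cannot be told apart.

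The members were checked against the name of the class by translating their coding sequences. Of the 84 genes, 78 were protein-coding in GENCODE, and 65 of these held both a KRAB motif and at least 2 C2H2 fingers, with a median of 13 fingers. A further 9 genes held the KRAB motif with fewer than 2 fingers. No KRAB motif was found in the remaining 4 coding genes, which include Zfp367 and 2010111I01Rik of the chromosome 13 window and 2510039O18Rik of the chromosome 4 window. Among all 22527 coding genes translated in the same way, 292 held the motif and at least 2 fingers. The name of the class thus holds in full for 65 of the 84 genes, and in part for the 9 with the motif alone. It does not hold for the 4 coding genes without the motif. Nor does it hold for the 6 that are not protein-coding, such as Zfp640, which is annotated as a transcribed processed pseudogene, and Gm48419, a lincRNA.

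Short stretches of the promoters are shown because they mark the members of a cluster as copies of one another. RefSeq promoters (GRCm38.p6, 250 bases before to 50 after the start) were found for 64 of the 84 genes. For each cluster, the run of 20 bases held by the most member promoters is given in capitals, read in the direction of transcription, with 5 flanking bases on each side, in the promoter of a member described below. The run is a description of these windows and not a binding site.
Zfp971 (chr2:178023161-178023190, plus strand): actctAACCCTAAGGGTGGTGCTCAtgtca
Zfp979 (chr4:147642631-147642660, minus strand): ctctaAAGAACTGGGAAGCTAATTAagtaa
Zfp988 (chr4:147305479-147305508, plus strand): ccctgAAGAACTGGGAAGCTAATTAattaa
Zfp874a (chr13:67451640-67451669, minus strand): gcacaGACTTGTGGGAAATGTAGTCtgcag
The chromosome 2 run stood in 23 of 23 member promoters, and in the promoters of 29 of 27025 genes over the genome (0.107%), all of which lie in that window. The flanking bases were the same in all 23. The chromosome 4 run stood in 7 of 12 member promoters and in 9 genes over the genome, and the chromosome 13 run in 5 of 29 member promoters and 6 genes over the genome. The 3 clusters thus differed in how alike their members are at the promoter.

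The copies were also alike at the 3′ end, where the reads were counted. In the chromosome 2 cluster, the median gene shared 71.8% of the 100-base windows of its annotated 3′UTR with another gene, and 15 of the 20 genes with such windows shared at least 50%. The median was 7.3% in the chromosome 4 cluster and 0.0% in the chromosome 13 cluster, where 31 of 35 genes shared less than 5%. On chromosome 2, 22 of the 37 sites had exactly the same length as another member site, in 7 sets. The values within the sets above 20 TPM were close in each library, while in the pair of 5730 bases Gm14296 had 0.474 TPM and Gm17258 0.980 TPM in DIDO3ΔCT+HADIDO3 replicate 1. The 4 copies Zfp966, Zfp967, Zfp968 and Zfp969, at sites of 3342 bases, ranged from 34.5 to 37.0 TPM in WT replicate 1, from 64.4 to 68.7 TPM in DIDO3ΔE16 replicate 1 and from 25.8 to 29.2 TPM in DIDO3ΔCT+HADIDO3 replicate 1. The 6 copies at sites of 4909 bases, Gm4631, Gm4724, Gm11007, Gm2007, Gm14434 and Gm14308, ranged from 23.8 to 25.8 TPM in WT replicate 1. In this set Gm4724, Gm14434 and Gm14308 shared 100% of their 3′UTR windows and Gm4631 5.1%, while Gm11007 and Gm2007 had none to compare. The added 2 kb were not compared between copies. A read from shared sequence cannot be assigned to 1 gene. Sites of such copies may thus not be independent measurements, and their values are uncertain for each gene alone.

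**Figure D1:**
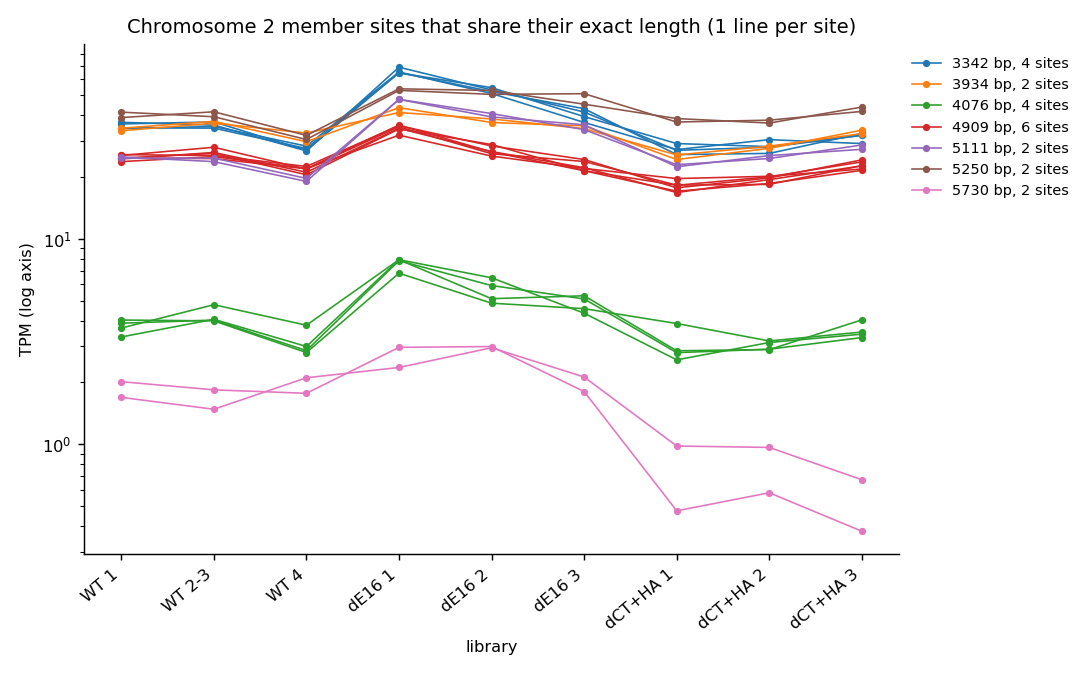
TPM (log axis) in each of the 9 libraries for the 22 chromosome 2 member sites that share their exact length with another member site, 1 line per site and 1 colour per length (dE16, DIDO3ΔE16; dCT+HA, DIDO3ΔCT+HADIDO3). Lines of 1 colour run close together in every library, apart from the sets of 4076 and 5730 bases, which are below 8 TPM and spread further.

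The clusters differed in their level in WT. The median site of the chromosome 4 cluster had 106.5 TPM in WT, against 24.0 TPM on chromosome 2 and 11.8 TPM on chromosome 13, and 10 of its 18 sites reached at least 100 TPM. The median over the other 437 sites of genes named Zfp was 8.98 TPM, and the median over all sites was 3.59 TPM. Summed over members, the chromosome 4 cluster took 0.209 to 0.263% of the TPM of a WT library, the chromosome 2 cluster 0.0854 to 0.105% and the chromosome 13 cluster 0.0729 to 0.0819%.

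Summed TPM was compared between groups for each cluster, as a description with no test, since the clusters were chosen with results of these libraries known. The chromosome 2 cluster summed to 1048, 1046 and 854 TPM in WT, to 1514, 1353 and 1210 TPM in DIDO3ΔE16 and to 824, 859 and 946 TPM in DIDO3ΔCT+HADIDO3. Every DIDO3ΔE16 library lay above every other library, by 1.38-fold over WT in the means (log2 ratio 0.47) and by 1.55-fold over DIDO3ΔCT+HADIDO3. DIDO3ΔCT+HADIDO3 overlapped WT, with a log2 ratio of -0.17. Against WT replicate 2-3 alone, the only WT library whose identifier is of the same family as those of the mutants, the log2 ratio of DIDO3ΔE16 was 0.38.

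The chromosome 4 cluster summed to 2634, 2431 and 2093 TPM in WT, to 3115, 2916 and 2861 TPM in DIDO3ΔE16 and to 2219, 2357 and 2615 TPM in DIDO3ΔCT+HADIDO3. DIDO3ΔE16 again lay above all other libraries, 1.24-fold over WT (log2 ratio 0.31). The near equality of DIDO3ΔCT+HADIDO3 and WT (log2 ratio 0.01) rested on Zfp990. Its gain of 422 TPM in the mean outweighed the other members, and without it the log2 ratio was -0.30, with means of 1814 and 2225 TPM.

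The chromosome 13 cluster summed to 819, 805 and 729 TPM in WT, to 925, 940 and 953 TPM in DIDO3ΔE16 and to 870, 885 and 1017 TPM in DIDO3ΔCT+HADIDO3. Both mutant groups lay above WT, with log2 ratios of 0.26 and 0.24. Most of this came from the site matched to the pseudogene Zfp640, whose mean was 114 TPM higher than WT in DIDO3ΔE16 and 158 TPM higher in DIDO3ΔCT+HADIDO3, while the whole sum was 155 and 139 TPM higher. Without Zfp640 the log2 ratios were 0.08 and -0.04, and both groups overlapped WT. With only the genes that hold a KRAB motif and at least 2 fingers, they were 0.13 and -0.03. Of the 3 sums, those of chromosomes 2 and 4 separated DIDO3ΔE16 from both other groups.

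**Figure D2:**
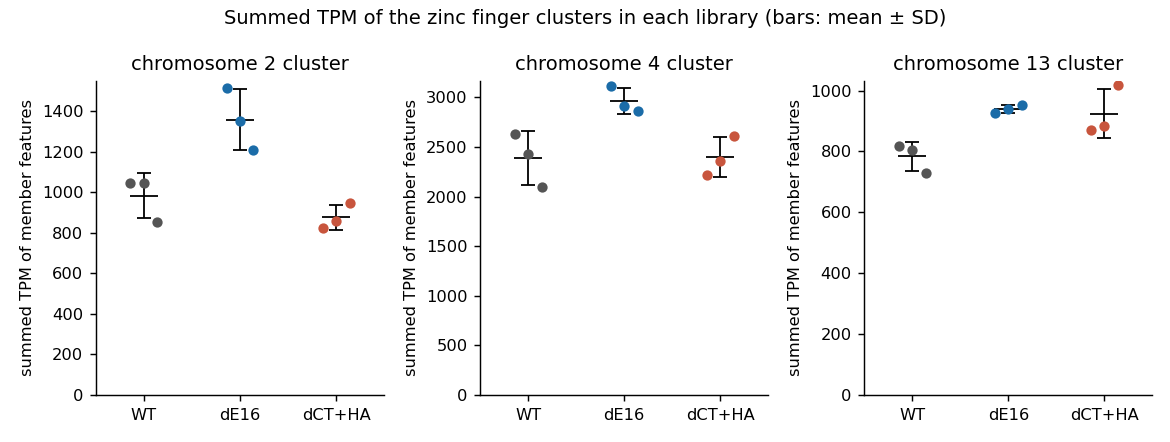
Summed TPM of the member features of each cluster in each library (points) with the mean and SD of each group (bars), for WT, DIDO3ΔE16 (dE16) and DIDO3ΔCT+HADIDO3 (dCT+HA). The DIDO3ΔE16 libraries lie above all others on chromosome 2 (1210 to 1514 TPM) and chromosome 4 (2861 to 3115 TPM), and on chromosome 13 both mutant groups lie above WT.

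By site, log2(TPM + 0.1) was compared with limma over all sites detected (TPM above 0) in each library compared. Fold changes are on that scale, which understates the change of low sites. A call needed a log2 fold change of 0.7 or more in either direction with a Benjamini-Hochberg adjusted p, taken over all sites, under 0.05. In DIDO3ΔE16 relative to WT, 12 of the 95 member sites tested were called, where 15.1% of all 21096 sites were, so the share of members called (12.6%) was near the background. All 12 were higher (10.2% of all sites were called higher) and 0 were lower (4.93%). With limma, 14 member sites were lower at an unadjusted p under 0.05, and with quantile normalization 3 were called lower. On chromosome 2, 7 of 37 sites were called higher, the log2 fold change of all 37 was above 0, and the median was 0.51, beside -0.01 over all sites. DIDO3ΔE16 lay above WT without overlap at 23 of the 37 and below it at 0, where 27.6% and 21.7% of all sites did. The median was 0.18 over the 18 chromosome 4 sites, with Zfp990 the only one called, and -0.08 over the 40 chromosome 13 sites tested, 4 of which were called. Since 22 of the chromosome 2 sites stand in sets of copies, the count of 37 does not stand for 37 separate genes.

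The pattern was different in DIDO3ΔCT+HADIDO3. Here 19 of 94 member sites were called (20.2%, beside 17.3% of all 20911 sites), 4 higher (10.0% of all sites) and 15 lower (7.22%). On chromosome 4, 6 of 18 sites were called lower and Zfp990 higher, with a median log2 fold change of -0.61. On chromosome 2, 4 of 37 were called lower and 0 higher (1 at an unadjusted p under 0.05), with a median of -0.31. On chromosome 13, 3 of 39 were called higher and 5 lower, with a median of -0.18, and over all sites the median was -0.01. The groups did not overlap at 11 member sites with DIDO3ΔCT+HADIDO3 higher and at 31 with it lower, beside 32.0% and 21.4% of all sites. Both comparisons share the WT libraries.

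The difference between the mutant groups was tested directly. In DIDO3ΔE16 relative to DIDO3ΔCT+HADIDO3, 38 of 97 member sites were called (39.2%, beside 27.3% of all 21202 sites), 35 higher (13.9% of all sites) and 3 lower (13.4%). On chromosome 2, 19 of 37 sites were called higher and 0 lower (0 at an unadjusted p under 0.05), and 34 of 37 had no overlap between the groups with DIDO3ΔE16 higher, which 29.7% of all sites did. On chromosome 4, 9 of 18 were called higher and Zfp990 lower. On chromosome 13, 7 of 42 were called higher and 2 lower, and the groups did not overlap at 12 sites with DIDO3ΔE16 higher and at 11 with it lower (31.9% of all sites). The medians were 0.71, 0.74 and -0.04, beside 0.01 over all sites and 0.23 over the 406 sites of other genes named Zfp. The excess over the background depended on the setting. Without DIDO3ΔCT+HADIDO3 replicate 1, 25 of 97 member sites were called (25.8%, the same share as over all sites). Over sites that share no base with another, 25 of 78 were (32.1%, beside 29.5%), and with sites summed over the gene 24 of 84 genes were (28.6%, beside 28.2% of all genes).

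**Figure D3:**
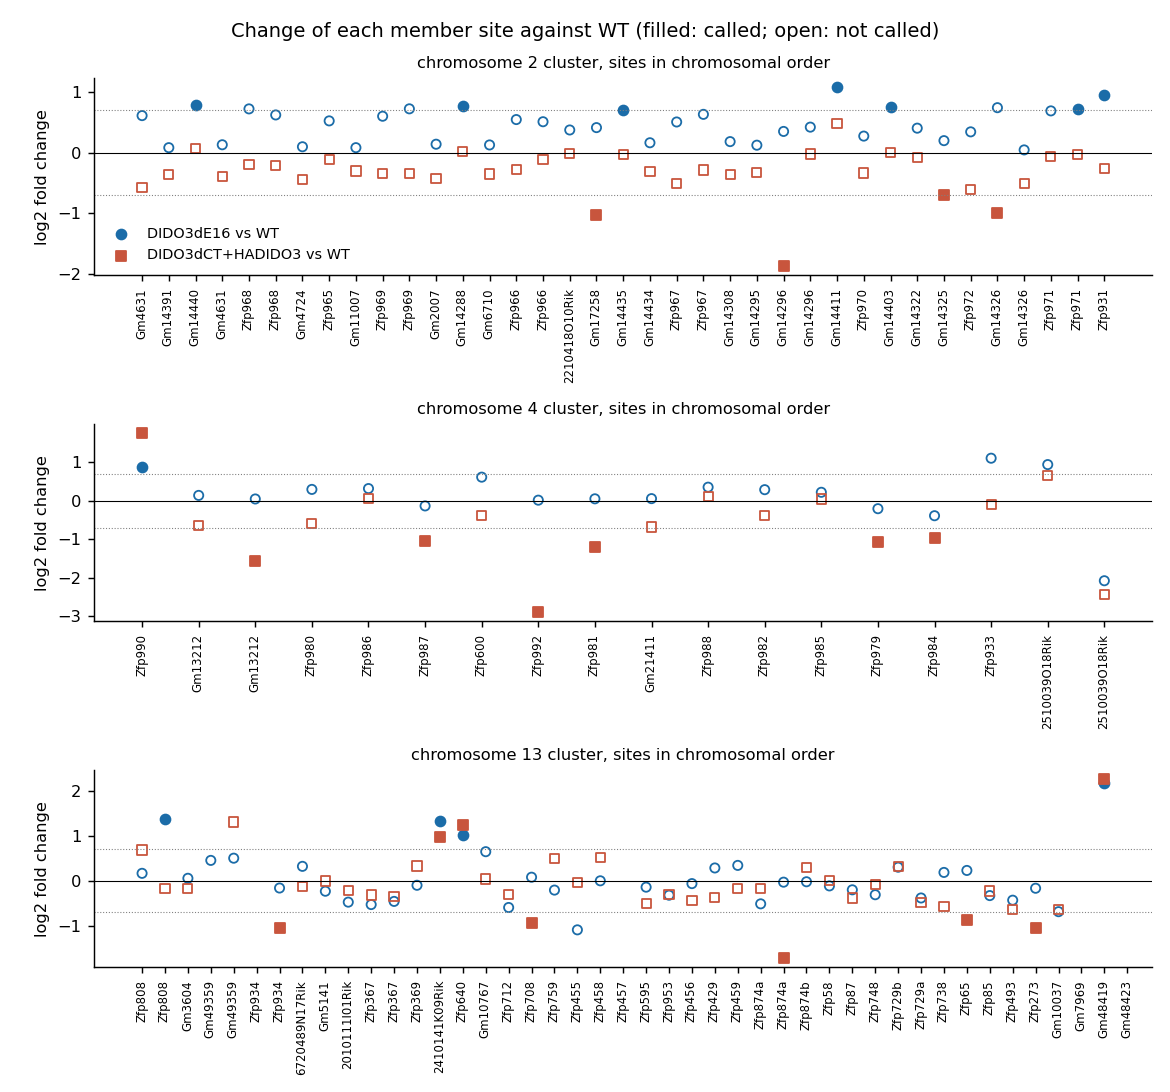
Log2 fold change relative to WT of each member site, in chromosomal order within each cluster, for DIDO3ΔE16 (circles) and DIDO3ΔCT+HADIDO3 (squares). Filled symbols were called, dotted lines mark 0.7 in each direction, and sites with no symbol were not tested. On chromosome 2 all 37 circles lie above 0, on chromosome 4 Zfp990 at the left end is above 0 in both groups while 6 squares were called below it, and on chromosome 13 the symbols lie on both sides of 0.

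Of the called chromosome 2 members, Zfp971 was the most abundant gene of its cluster. Its larger site (178034023 to 178037859) had 68.6, 64.9 and 51.5 TPM in WT, 101.8, 108.9 and 103.7 TPM in DIDO3ΔE16 and 62.2, 66.0 and 64.5 TPM in DIDO3ΔCT+HADIDO3. All DIDO3ΔE16 libraries were higher than the others, with a log2 fold change over WT of 0.71 ± 0.11 (SE, limma adjusted p = 0.0063). The change was close to the threshold, and the call was lost without WT replicate 4 (0.59) or DIDO3ΔE16 replicate 2 (0.69) and with flow cell family as a covariate (0.63). Summed over both of its sites, the gene was not called (0.69). Zfp931, at the distal end of the window (178064878 to 178067694), shares only 1.5% of its 3′UTR windows with other genes. It had 18.5, 17.1 and 12.5 TPM in WT, 32.8, 30.7 and 32.4 TPM in DIDO3ΔE16 and 14.5, 13.2 and 15.1 TPM in DIDO3ΔCT+HADIDO3, so that DIDO3ΔE16 alone stood apart (log2 fold change 0.95). The other called sites were Gm14440, Gm14288, Gm14435, Gm14403 and the pseudogene Gm14411, from 0.70 to 1.08. Gm14440 and Gm14288 share 100% and Gm14435 83.4% of their 3′UTR windows with other genes, among them each other. The calls at these copies may thus not be independent.

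Other abundant chromosome 2 genes changed more in DIDO3ΔCT+HADIDO3. Gm14325 (177826991 to 177831790), with 14 fingers, had 74.7, 71.8 and 63.5 TPM in WT, 82.1, 87.0 and 82.0 TPM in DIDO3ΔE16 and 45.2, 44.3 and 48.8 TPM in DIDO3ΔCT+HADIDO3. The 3 groups did not overlap, and the site fell in DIDO3ΔCT+HADIDO3 by a log2 fold change of -0.70 ± 0.07 (SE, limma adjusted p = 0.0013), a value at the threshold that missed it in 6 fits with other settings and 4 with a library left out. Gm14326 had 123, 116 and 104 TPM in WT and 82.6, 86.3 and 89.6 TPM in DIDO3ΔCT+HADIDO3 at its main site (177942591 to 177945536), with a log2 fold change of -0.51 that was not called. Its minor site (177933993 to 177936537) had 1.08 to 1.83 TPM in WT, 2.32 to 2.92 TPM in DIDO3ΔE16 and 0.622 to 0.863 TPM in DIDO3ΔCT+HADIDO3, and the mutant groups differed by 1.73 ± 0.19 (SE, limma adjusted p = 0.0013). Summed over both sites of the gene, the difference was 0.51 and not called. Gm14296 likewise had a minor site (176890508 to 176896237) with 1.77 to 2.02 TPM in WT, 1.80 to 2.99 TPM in DIDO3ΔE16 and 0.377 to 0.580 TPM in DIDO3ΔCT+HADIDO3, where the fall was -1.88 ± 0.19 (SE, limma adjusted p = 0.0017). Summed over the gene it was -0.06, because the main site of Gm14296 had 30.5 to 41.5 TPM in WT and 37.1 to 41.8 TPM in DIDO3ΔCT+HADIDO3. Gm14295 and Zfp965, the remaining genes among the 5 most abundant, were not called in any comparison.

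Zfp990 was the chromosome 4 member with the largest difference in mean TPM between DIDO3ΔCT+HADIDO3 and either other group, while between DIDO3ΔE16 and WT it was Zfp988, with 191 TPM. It codes for a protein with a KRAB motif and 13 fingers, and shares 0.1% of its 3′UTR windows with other genes. Its site (chromosome 4, 145537559 to 145539559) had 180, 169 and 135 TPM in WT, 297, 311 and 314 TPM in DIDO3ΔE16 and 544, 563 and 643 TPM in DIDO3ΔCT+HADIDO3. The 3 groups did not overlap. The log2 fold change was 0.88 ± 0.10 in DIDO3ΔE16 (SE, limma adjusted p = 0.0030) and 1.76 ± 0.12 in DIDO3ΔCT+HADIDO3 (adjusted p = 5.0e-04), and the groups differed from each other by -0.90 ± 0.06 (adjusted p = 1.9e-04). The feature holds 1 base of UCSC 3′UTR and then the added 2 kb. It was matched to the gene by coding sequence and not by a stop codon. In GENCODE the 3′UTR of Zfp990 is longer and holds 841 windows of 100 bases. The value may thus describe sequence of the gene as well as sequence past its end.

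Of the other 15 chromosome 4 genes, 6 were called lower in DIDO3ΔCT+HADIDO3. Zfp992 (146467546 to 146471440), with 11 fingers, had 115.6, 113.5 and 94.9 TPM in WT, 120.5, 109.9 and 111.6 TPM in DIDO3ΔE16 and 4.62, 26.03 and 30.02 TPM in DIDO3ΔCT+HADIDO3. WT and DIDO3ΔE16 overlapped, and the fall in DIDO3ΔCT+HADIDO3 was -2.90 ± 0.77 (SE, limma adjusted p = 0.039). The spread within that group was wide, and the call was lost when any 1 WT library was left out (adjusted p from 0.093 to 0.106) or with flow cell family as a covariate. With 1 library left out, the log2 fold change ran from -3.36 to -2.06, the smallest without DIDO3ΔCT+HADIDO3 replicate 1. Zfp979 (147609936 to 147613026) had 235, 207 and 179 TPM in WT, 184, 183 and 193 TPM in DIDO3ΔE16 and 88.6, 99.2 and 133 TPM in DIDO3ΔCT+HADIDO3, a log2 fold change of -1.07 ± 0.17 (SE, limma adjusted p = 0.0061) in the last. Zfp987, Zfp981, Zfp984 and the minor site of Gm13212 were also called lower there, from -1.55 to -0.96. Gm21411, with a log2 fold change of -0.68 against WT, missed the threshold but was 0.72 ± 0.05 higher in DIDO3ΔE16 than in DIDO3ΔCT+HADIDO3 (SE, limma adjusted p = 2.3e-04).

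Zfp988, the most abundant member with 25.7% of the chromosome 4 sum, had 619, 586 and 508 TPM in WT, 806, 763 and 718 TPM in DIDO3ΔE16 and 621, 669 and 690 TPM in DIDO3ΔCT+HADIDO3. Both mutant groups lay above WT, but the log2 fold changes of 0.36 and 0.11 did not reach the threshold. Its feature and that of Gm21411 hold 2 bases of annotated 3′UTR, and 5 of the 18 chromosome 4 sites hold under 11. The level and sum of that cluster thus rest in part on the added 2 kb. Whether these lie past the gene ends was not tested, and in GENCODE the 3′UTR of Zfp988 holds 626 windows of 100 bases. Zfp982 was not called either.

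On chromosome 13 a few members rose in both mutant groups. Zfp640 (66669077 to 66671077) had 109, 110 and 93.2 TPM in WT, 226.5, 217.3 and 211.9 TPM in DIDO3ΔE16 and 254.1, 254.3 and 278.8 TPM in DIDO3ΔCT+HADIDO3. The groups did not overlap, and the log2 fold changes over WT were 1.01 ± 0.07 and 1.23 ± 0.07 (SE, limma adjusted p = 7.6e-04 and 3.3e-04). Its feature, too, holds 1 base of annotated 3′UTR. It was matched to Zfp640 only by overlap with an exon, so the value may not be that of the pseudogene alone. 2410141K09Rik, with a KRAB motif and 14 fingers, had 2.60 to 2.96 TPM in WT, 6.47 to 8.53 TPM in DIDO3ΔE16 and 5.18 to 7.09 TPM in DIDO3ΔCT+HADIDO3, with changes of 1.33 ± 0.14 and 0.97 ± 0.14 (SE, limma adjusted p = 0.0021 and 0.0051).

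The lincRNA Gm48419 (67968277 to 67972239) had 0.115 to 0.200 TPM in WT, 1.04 to 1.299 TPM in DIDO3ΔE16 and 0.959 to 1.72 TPM in DIDO3ΔCT+HADIDO3, and rose in both with log2 fold changes of 2.18 ± 0.23 and 2.25 ± 0.28 (SE, limma adjusted p = 0.0023 and 0.0032). Gm7969 and Gm48423, the lincRNAs on each side of it, have features of the same length of 3963 bases. They could not be tested against WT because each was listed at 0 TPM in 1 WT library, and Gm7969 had 0.797 to 2.33 TPM and Gm48423 0.619 to 2.04 TPM in DIDO3ΔE16. All 3 stayed at or below 2.33 TPM in every library, where few reads stand behind a value.

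Zfp808, with 22 fingers, had different changes at the 2 sites matched to it. The second was matched only by overlap with an exon, so it may not be a 3′ end of the coding gene. The site at the end of its coding gene (62173221 to 62175936) had 44.4, 39.7 and 32.9 TPM in WT, 47.9, 42.5 and 45.9 TPM in DIDO3ΔE16 and 57.8, 67.7 and 76.3 TPM in DIDO3ΔCT+HADIDO3. It was highest in DIDO3ΔCT+HADIDO3, with a log2 fold change of 0.68 that missed the threshold. The site further downstream (62235820 to 62238154) had 15.6, 19.1 and 13.5 TPM in WT, 43.1, 42.1 and 43.6 TPM in DIDO3ΔE16 and 15.02, 14.95 and 15.75 TPM in DIDO3ΔCT+HADIDO3. It rose in DIDO3ΔE16 alone, by 1.36 ± 0.13 over WT and 1.51 ± 0.04 over DIDO3ΔCT+HADIDO3 (SE, limma adjusted p = 0.0016 and 2.8e-05). Summed over the gene, neither of these changes was called (0.61 and 0.09).

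Other chromosome 13 genes fell in DIDO3ΔCT+HADIDO3. Zfp874a, with 9 fingers, had 43.3, 39.4 and 41.1 TPM in WT, 39.3, 43.5 and 43.9 TPM in DIDO3ΔE16 and 13.6, 12.3 and 14.4 TPM in DIDO3ΔCT+HADIDO3 at its main site (67438431 to 67442219). WT and DIDO3ΔE16 overlapped, and the fall was -1.72 ± 0.07 (SE, limma adjusted p = 1.6e-04). Zfp65, Zfp273 and Zfp708 were also called lower, from -1.04 to -0.86. The fourth such call besides Zfp874a, at Zfp934, was to be read with the overlapping site of the same gene, which was listed at 0 TPM in all WT and DIDO3ΔE16 libraries and held 0.957, 27.03 and 30.95 TPM in DIDO3ΔCT+HADIDO3. Summed over the gene, Zfp934 had 23.042 to 25.9 TPM in WT and 9.40, 41.6 and 47.3 TPM in DIDO3ΔCT+HADIDO3, so the fall at 1 site did not hold for the gene in 2 of these libraries. Zfp759 (67140553 to 67143787) had 10.1 to 14.9 TPM in WT, 10.51 to 11.9 TPM in DIDO3ΔE16 and 18.2 to 18.99 TPM in DIDO3ΔCT+HADIDO3, and the mutant groups differed by -0.73 ± 0.06 (SE, limma adjusted p = 5.4e-04). Zfp455, at 0.540 to 2.28 TPM in all libraries, was called lower in DIDO3ΔE16 than in DIDO3ΔCT+HADIDO3 (-1.07 ± 0.32, SE, limma adjusted p = 0.040), a call lost in 8 of the other fits. Of the other most abundant genes, Zfp369, Zfp367 and Zfp459 were not called, with absolute log2 fold changes up to 0.53 in any comparison.

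**Figure D4:**
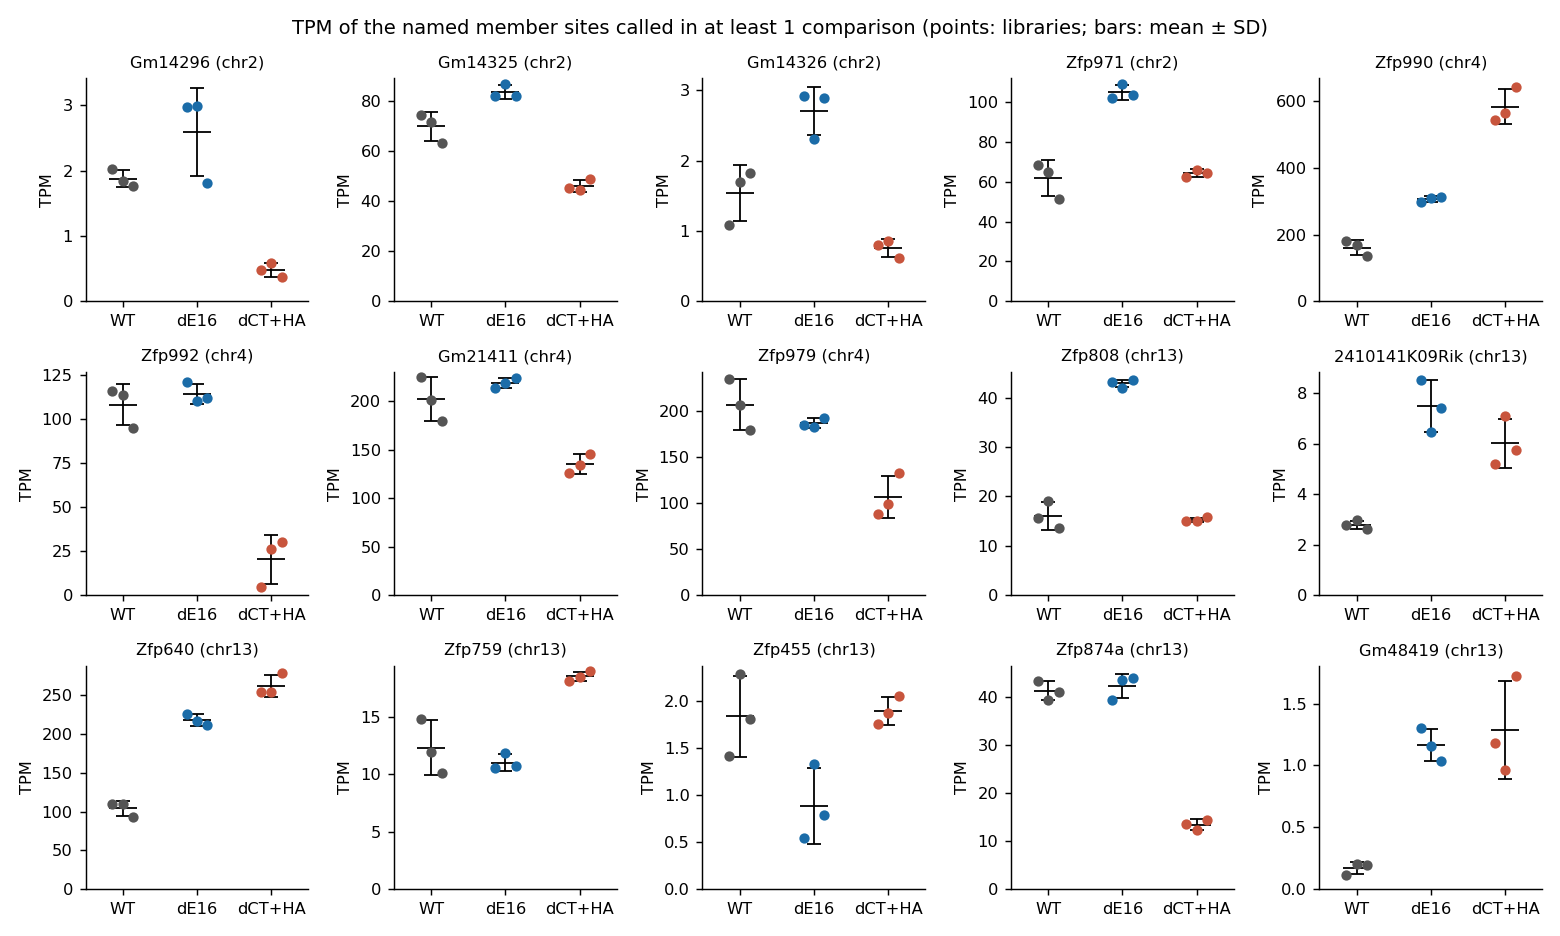
TPM of the 15 named member sites that were called in at least 1 comparison, with each library as a point and the mean and SD of each group as bars (dE16, DIDO3ΔE16; dCT+HA, DIDO3ΔCT+HADIDO3). Zfp990, Zfp640, 2410141K09Rik and Gm48419 lie above WT in both mutant groups, Zfp971 and the downstream Zfp808 site in DIDO3ΔE16 alone, and Zfp992, Zfp874a and Zfp979 lie below in DIDO3ΔCT+HADIDO3.

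The genes through which KRAB zinc finger proteins act were taken as a list of 25, each at its most abundant site, and all could be tested. In DIDO3ΔE16, 0 were called higher (4 at an unadjusted p under 0.05, limma) and 1 lower, where 10.2% and 4.93% of all sites were. In DIDO3ΔCT+HADIDO3, 2 were called higher and 1 lower (10.0% and 7.22% of all sites). Between the mutant groups 1 was higher and 1 lower in DIDO3ΔE16 (13.9% and 13.4% of all sites). The median log2 fold changes of the list were -0.08, -0.24 and 0.09. Trim28, the shared corepressor, had 165, 152 and 167 TPM in WT, 88.5, 94.5 and 92.0 TPM in DIDO3ΔE16 and 293, 300 and 280 TPM in DIDO3ΔCT+HADIDO3. The groups did not overlap, with log2 fold changes over WT of -0.88 (limma adjusted p = 4.1e-04) and 0.75 (adjusted p = 8.4e-04). Its site overlaps that of Chmp2a on the opposite strand, and the counting command names no strand, so reads of the genes cannot be told apart. Chd3, a remodeller of the NuRD complex, had 24.0 to 25.2 TPM in WT and 43.1 to 50.5 TPM in DIDO3ΔCT+HADIDO3 (log2 fold change 0.80). Its site shares bases with another site of the gene, which is not included. Atrx, a chromatin remodeller that acts with DAXX, had 175 to 237 TPM in WT and 92.8 to 111 TPM in DIDO3ΔCT+HADIDO3 (-1.16). Setdb1, the histone methyltransferase of the pathway, had 145 to 158 TPM in WT, 166 to 173 TPM in DIDO3ΔE16 and 114 to 118 TPM in DIDO3ΔCT+HADIDO3, with changes of 0.09 and -0.51 that were not called.

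Of 10 KRAB zinc finger genes listed from elsewhere in the genome, each taken at its most abundant site, 1 was called higher in DIDO3ΔE16 (10.2% of all sites). In DIDO3ΔCT+HADIDO3, 1 was called higher and 2 lower (10.0% and 7.22% of all sites). Between DIDO3ΔE16 and DIDO3ΔCT+HADIDO3, 4 were called higher and 1 lower (13.9% and 13.4% of all sites). Zfp809, which silences murine leukaemia proviruses, had 102 to 117 TPM in WT, 198 to 213 TPM in DIDO3ΔE16 and 96.7 to 110 TPM in DIDO3ΔCT+HADIDO3, so DIDO3ΔE16 alone stood apart (0.83 over WT). Zfp819 and Zfp13 fell in DIDO3ΔCT+HADIDO3 (-1.07 and -0.86) and Zfp30 rose there (1.21). The Zfp30 site shares bases with another site of the gene, which is not included. Zfp57, which protects imprints, had 8.20 to 10.2 TPM in DIDO3ΔE16 and 4.09 to 5.05 TPM in DIDO3ΔCT+HADIDO3 and was called only between these groups (1.05), at a site that overlaps Mog on the opposite strand.

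**Figure D5:**
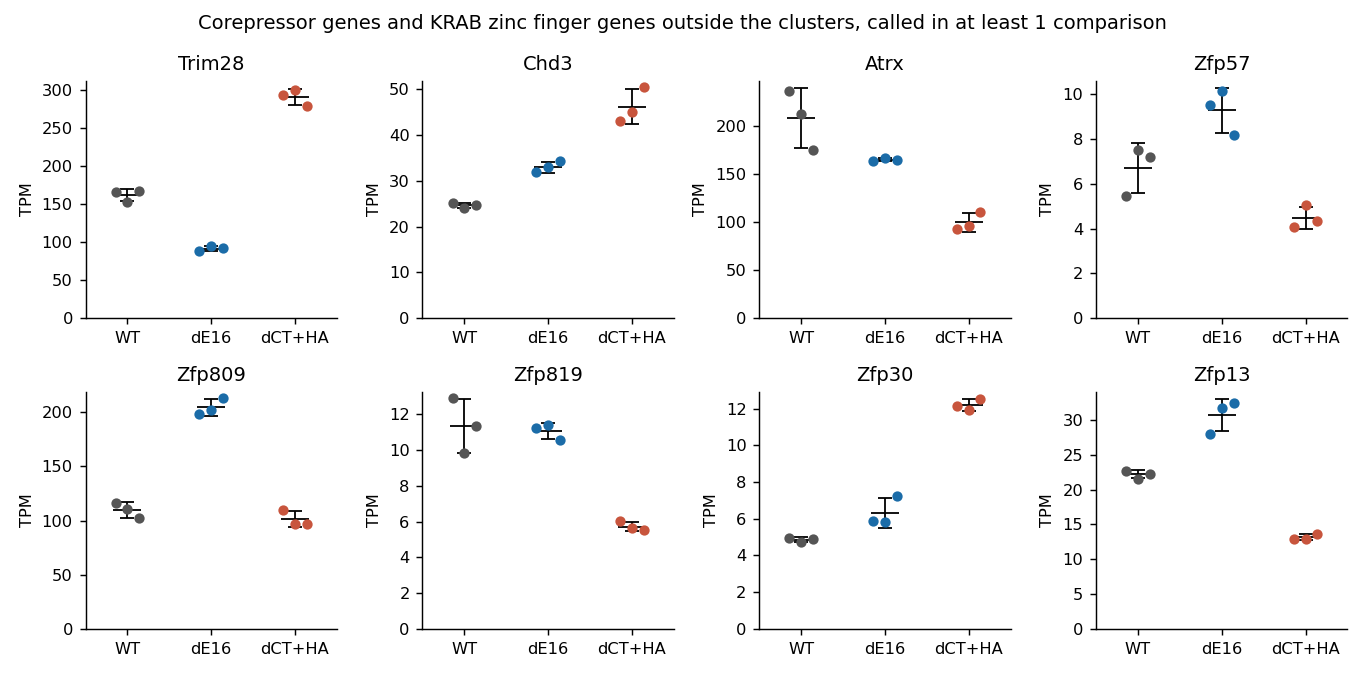
TPM in each library (points) with the mean and SD of each group (bars) for the 8 genes of the corepressor list and of KRAB zinc finger genes outside the clusters that were called in at least 1 comparison (dE16, DIDO3ΔE16; dCT+HA, DIDO3ΔCT+HADIDO3). Trim28 is lowest in DIDO3ΔE16 and highest in DIDO3ΔCT+HADIDO3, while Zfp809, Zfp57 and Zfp13 are highest in DIDO3ΔE16.

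The sites of such names nearest to each window end are given without a test. On chromosome 2, the last member, Zfp931, lies 435 kb inside the window, and 4930591A17Rik, 917 kb outside it, had 2.40 TPM in WT and log2 fold changes of 0.19 and 0.10. At the lower end the first member was Gm4631, and Zfp831 outside had 0.0194 TPM in WT. On chromosome 4, Zfp990 was the first member and Gm438, outside, was listed at 0 TPM in all libraries. At the upper end 2510039O18Rik was inside, with 72.4 TPM in WT at the nearest site, and Gm572 outside had 0.202 TPM in WT, 0.627 TPM in DIDO3ΔE16 and 0.178 TPM in DIDO3ΔCT+HADIDO3. On chromosome 13, Zfp808 was the first member, and Gm49391 outside was at most 0.0299 TPM in the group means. At the upper end Gm48423, inside, had means of 0.212, 1.11 and 1.21 TPM in WT, DIDO3ΔE16 and DIDO3ΔCT+HADIDO3, and Gm8016, 351 kb outside, had 0.0601, 0.429 and 1.24 TPM.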

How the data were processed

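ESC RNA-seq of WT, DIDO3ΔE16 and DIDO3ΔCT+HADIDO3 was analysed, 3 libraries each. The authors aligned reads to mm10 with BWA-MEM (0.7.15), which places a read with several equal hits at one of them, removed duplicates, and quantified UCSC 3′UTRs, each extended by 2 kb, with StringTie (1.3.3). The TPM values were used as deposited by the authors, and mean coverage (signal), also deposited, for depth only. Since no read counts per feature were used, limma took the place of the edgeR test of the authors.

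TPM was summed over features with the same coordinates. Sites above 0 in every library of a comparison were scaled by a trimmed mean (30% at each end). After adding 0.1, limma (3.58.1, run in R 4.3.3, trend and robust) was fitted to the log2 values, with p adjusted by Benjamini-Hochberg over all sites. The fit was tested on simulated data. Symbols came from GENCODE vM21, for 42430 of 43031 features. Coding sequences were translated for finger and KRAB patterns. Summaries used Python (3.11.15), numpy (2.4.6) and pandas (2.3.3).

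Members, windows and lists were chosen with earlier results of these data known, so cluster sums and counts carry no test. Named were the 5 most abundant genes of each cluster, up to 3 called sites higher and 3 lower in each comparison with the largest changes (1 TPM or more on average in 1 of the groups, groups not overlapping), the called genes of the lists, and Dido1. Other members were named after their values were seen. Of the 12 zinc finger genes listed from elsewhere, Zfp369 lies in the chromosome 13 window and was left out, and Gm15446 was not matched. Alternatives were other pseudocounts, filters, scalings, fits, thresholds and units, and leaving out each library. The same replicate number did not pair the mutant libraries.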

Additional observations from a re-analysis of the deposited data

Results flagged for a closer look

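For 12 named member sites, the direct comparison of the mutant groups passed the threshold, as it did for 27.3% of all 21202 sites. Sites were named in part for the size of this same difference, so the count of 12 is a list and not a result. Gm14326 (177933993), Zfp455 and Zfp759 were named for it alone. Values are log2 fold changes of DIDO3ΔE16 relative to DIDO3ΔCT+HADIDO3. On chromosome 2 they were 0.73 at Zfp971 (site starting at 178034023), 0.88 at Gm14325, 2.21 at Gm14296 and 1.73 at Gm14326 (177933993). On chromosome 4 they were -0.90 at Zfp990, 0.72 at Gm21411, 0.85 at Zfp979 and 2.90 at Zfp992. On chromosome 13 they were 1.51 at Zfp808 (62235820), 1.67 at Zfp874a, -1.07 at Zfp455 and -0.73 at Zfp759. The calls at Zfp992 and Zfp455 were lost with a replicate block (adjusted p = 0.071 and 0.070, limma). In the fit with sites summed over the gene, the call was lost with a small move at Zfp971 (0.691) and Gm21411 (0.681, a gene with 1 site), and with a large one at Gm14296 (0.442), Gm14326 (0.514) and Zfp808 (0.089).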

How the results depend on the processing

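Member sites called numbered 12 in DIDO3ΔE16 relative to WT (8 to 17 with 1 library left out), 19 in DIDO3ΔCT+HADIDO3 relative to WT (16 to 21) and 38 between the mutant groups (25 to 39). The last fell to 25 over sites that share no base with another (32.1%, beside 29.5% of all such sites) and to 24 with sites summed over the gene (28.6%, beside 28.2%), and without DIDO3ΔCT+HADIDO3 replicate 1 the 25 called were 25.8%, beside 25.8%. With a replicate block it was 28 (28.9%, beside 24.4%), but the same replicate number did not pair the libraries (correlations of 0.011, 0.018 and 0.018). Of the cluster sums, the chromosome 4 log2 ratios without the gene of largest difference were -0.295 for DIDO3ΔCT+HADIDO3 over WT and 0.551 for DIDO3ΔE16 over DIDO3ΔCT+HADIDO3. On chromosome 13 they were 0.084, -0.04 and 0.124 without Zfp640, and 0.131, -0.025 and 0.157 with only genes that hold a KRAB motif and fingers. For the 28 named calls, 462 of 512 alternatives kept the call, 50 lost it and 0 reversed it. Directions reversed only where no call was made. In DIDO3ΔCT+HADIDO3 relative to WT, Zfp971 had 0.069 without scaling, 0.047 with quantile normalization and -0.15 to 0.039 with 1 library left out, Zfp455 had 0.062 without scaling and -0.208 to 0.125 with 1 left out, and the downstream Zfp808 site had 0.503 summed over the gene. In DIDO3ΔE16 relative to WT, Gm14326 (177942591) had -0.019 to 0.09 and Gm21411 -0.016 to 0.128 with 1 library left out, Zfp992 had -0.065 to 0.059 with 1 left out and -0.056 with flow cell family as a covariate, and Zfp369 had 0.009 with quantile normalization. Zfp874a had 0.037 with flow cell family, 0.033 without scaling, 0.051 with quantile normalization, 0.281 over single features and -0.065 to 0.014 with 1 left out. Between the mutant groups, Zfp808 (62173221) had 0.089 summed over the gene and Gm48419 -0.266 to 0.114 with 1 left out. The causes were not tested. The alternative that takes members from a protein table was not run. Without read counts per site, the counting error of low sites is not known, and copies with the same 3′ end limit what a site says of 1 gene.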
